A study of Mus musculus with 20 samples.

Results

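The glutathione S-transferase genes outside the pi class (*Gstp*) were examined in the mouse utricle. The 10 genes, *Gsta4*, *Gstm1*, *Gstm2*, *Gstm5*, *Gstt1*, *Gstk1*, *Gsto1*, *Mgst1*, *Mgst2* and *Mgst3*, were chosen by name and enzyme class, with earlier results of these data known, from the 25655 genes of the deposited tables. The question was whether these other classes follow the ovarian hormone state. All mice were C57BL/6J females that underwent surgery at the age of 8 weeks, and the utricle was taken 4 weeks later. The groups were a sham operation with a vehicle pellet (sham + v), ovariectomy with a vehicle pellet (OVX + v), ovariectomy with an estradiol pellet of 50 µg per 60 days (OVX + E2) and ovariectomy with a raloxifene pellet of 2.4 mg per 60 days (OVX + RAL). Each group had 5 libraries, and each library was made from 1 ng of RNA with a kit that reads the 3′ ends of mRNA. Below, the sham, estradiol and raloxifene comparisons are those of the sham + v, the OVX + E2 or the OVX + RAL group with the OVX + v group. The labels do not say whether each library came from a separate mouse, so the p-values measure only the spread between these libraries.

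Glutathione S-transferases join the tripeptide glutathione to reactive electrophiles, which makes them soluble and ready for export. The alpha, mu, theta and omega classes are soluble enzymes of the cytosol, the kappa class lies in mitochondria and peroxisomes, and the microsomal enzymes belong to a separate family of membrane proteins. In the inner ear the pathway is known for the removal of lipid peroxidation products such as 4-hydroxynonenal. Raloxifene is a selective estrogen receptor modulator.

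The libraries held between 1123053 and 2081747 counts. The OVX + E2 libraries were the shallowest, with a median of 1324047 counts and 7427 to 9680 genes with a count, against 1605308 counts and 10004 to 10694 genes in the OVX + v group. Levels are given as CPM, the counts scaled to a library total of 1000000, and since the kit reads 3′ ends they were not divided by gene length. The markers set for hair cells, supporting cells, otoconial epithelium and dark cells each had counts in every group. In such bulk samples, fewer cells of a type and less RNA per cell cannot be told apart.

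*Gstm1* was the most abundant member with a mean of 386 CPM over the 20 libraries, rank 321 of 25655 genes. It was followed by *Gstm2* (160 CPM), *Mgst1* (110 CPM), *Gsta4* (98.4 CPM), *Gstm5* (71.6 CPM), *Gstk1* (63.0 CPM) and *Gstt1* (47.7 CPM). *Mgst3* (19.6 CPM), *Gsto1* (11.02 CPM) and *Mgst2* (0.666 CPM) were low, with no count in 5, 11 and 19 libraries, respectively. The neighbours in this order from *Mgst1* to *Gstt1* differed by less than the SD over the 20 libraries, which was between 32.9 and 58.1 CPM for these 5 genes. Summed over the 10 members, the level was lowest in the OVX + E2 group with 846 ± 159 CPM, followed by OVX + RAL (983 ± 201 CPM), OVX + v (993 ± 169 CPM) and sham + v (1049 ± 89.3 CPM; SD, each n = 5). *Gstm1* made up between 17.8% and 59.8% of that sum, and both extremes stand out in the stacked levels, in OVX + E2 replicate 12 and OVX + v replicate 10.

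**Figure D1:**
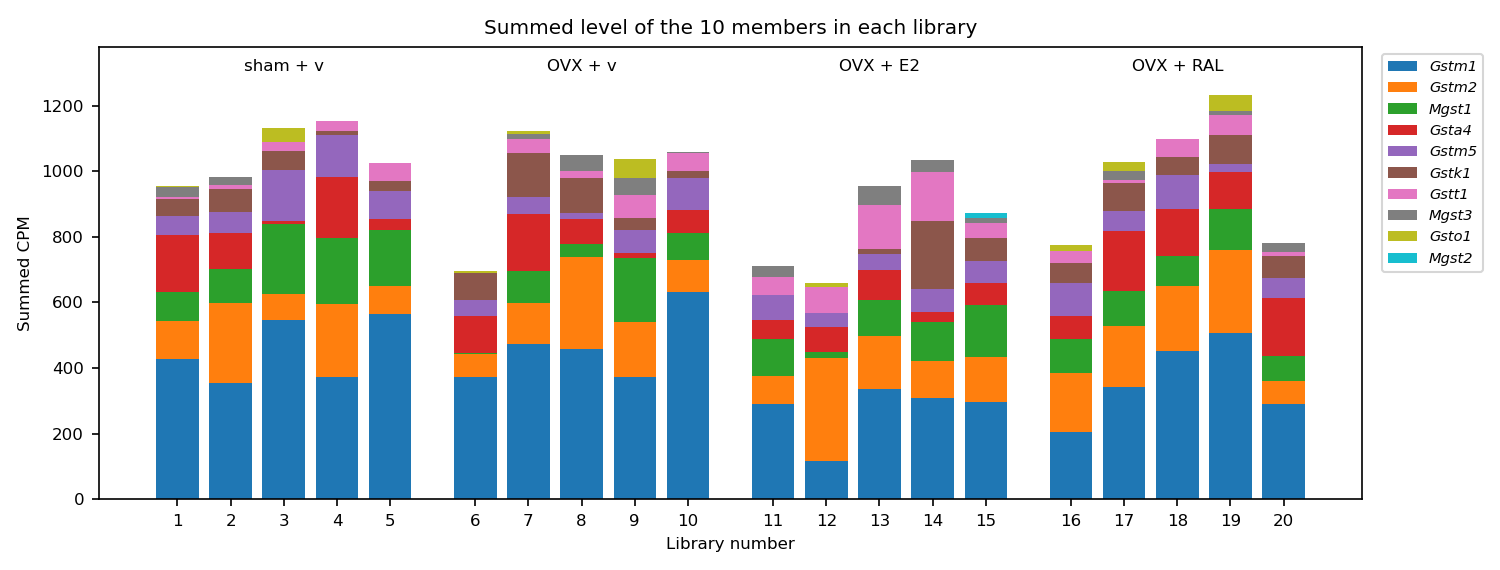
Stacked CPM of the 10 members (y axis) in each of the 20 libraries (x axis, library number), grouped by treatment; each colour is a gene. The sums run from 658 CPM in OVX + E2 replicate 12 to 1231 CPM in OVX + RAL replicate 19, and *Gstm1* is the largest share in every library except OVX + E2 replicate 12, where *Gstm2* is.

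Promoters were read from RefSeq sequence on the GRCm38.p6 build, as the 250 bases before each annotated start. They were available for 9 of the 10 members, in 11 windows. Each window was searched on both strands for the antioxidant response element core TGACNNNGC, the full estrogen response element GGTCANNNTGACC and its single arm GGTCA. The core was present in windows of *Gstm5* and *Mgst1*, and in 10.2% of all 32851 promoters. The full estrogen element was present in none of the members' windows and in 0.064% of all promoters. The single arm was present in *Gstm5*, *Gstk1*, *Gsto1* and *Mgst1*, and in 35.2% of all promoters. In *Gstm5* and *Mgst1* the arm overlapped the antioxidant core, which began 42 and 56 bases before the start, respectively. These 2 windows are shown because they hold both motifs, and that of *Gstm1* because this gene had the clearest separation between groups below. Capitals mark matches to the antioxidant core and the arm.

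*Gstm5*, chr3:107895604-107895853, plus strand: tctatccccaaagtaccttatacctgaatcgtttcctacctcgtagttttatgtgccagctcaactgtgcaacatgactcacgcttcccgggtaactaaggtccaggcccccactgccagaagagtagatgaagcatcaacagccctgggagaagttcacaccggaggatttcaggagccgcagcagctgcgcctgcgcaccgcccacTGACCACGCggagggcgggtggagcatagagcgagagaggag
*Mgst1*, chr6:138140277-138140526, plus strand: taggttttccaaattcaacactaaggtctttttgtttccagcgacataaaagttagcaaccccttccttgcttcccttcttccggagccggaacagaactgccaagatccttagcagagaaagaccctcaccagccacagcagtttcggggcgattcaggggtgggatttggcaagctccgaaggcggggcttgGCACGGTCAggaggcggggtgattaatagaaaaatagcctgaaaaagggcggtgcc
*Gstm1*, chr3:108017819-108018068, minus strand, no match: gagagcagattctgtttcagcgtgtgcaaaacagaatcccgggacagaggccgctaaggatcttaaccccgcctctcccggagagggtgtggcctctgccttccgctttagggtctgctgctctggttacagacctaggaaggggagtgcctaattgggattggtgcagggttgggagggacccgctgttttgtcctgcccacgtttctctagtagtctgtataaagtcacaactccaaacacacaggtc

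The mu class members lie together on chromosome 3 within 122 kb of the GRCm39 build, a stretch that holds 6 genes named *Gstm*. *Gstm1*, the main mu class enzyme of many tissues, lies at chr3:107919571-107925289 on the minus strand. Its level was 428, 353, 547, 372 and 564 CPM in sham + v replicates 1 to 5, respectively. In OVX + v replicates 6 to 10 it was 373, 474, 459, 373 and 633 CPM. In OVX + E2 replicates 11 to 15 it was 291, 117, 336, 308 and 295 CPM. All 5 OVX + E2 libraries lay below all 5 OVX + v libraries. In OVX + RAL replicates 16 to 20 it was 204, 341, 451, 505 and 289 CPM, which overlapped every other group.

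The mean of *Gstm1* was 269 ± 87.0 CPM in the OVX + E2 group and 462 ± 106 CPM in the OVX + v group (SD, each n = 5). The log2 fold change was -0.78 (standard error, SE, 0.338, 95% interval -1.44 to -0.12), with an adjusted p of 0.351 by edgeR's quasi-likelihood test. The difference therefore did not pass the threshold of 0.05 over all 13695 genes tested, where its p ranked 285. In a two-sided exact permutation test over all groupings of the 10 libraries p was 0.00794, the smallest this design allows, and the adjusted p over all genes was 0.920. Non-overlap of this kind, lower in the OVX + E2 group, was seen in 0.672% of all genes tested and in 45 of the 7262 genes (0.620%) with a mean of at least 20 CPM. Without OVX + E2 replicate 12, which stood lowest, the log2 fold change was -0.59 (adjusted p = 0.496, edgeR). Of 9 fibroblast and mesenchyme markers, 8 were lower in the OVX + E2 group, 2 of them called (*Ptgds* and *Apod*). Their summed level was 48604 to 75208 CPM in the OVX + E2 group and 64379 to 78020 CPM in the OVX + v group, and none of these markers was at 0. In the sham comparison 8 of these 9 markers were also lower, 0 of them called, with a summed level of 51251 to 112752 CPM in the sham + v group. Of 7 Schwann cell markers, 6 were higher in the OVX + E2 group, 0 of them called, with a summed level of 2329 to 4656 CPM against 1941 to 3370 CPM in the OVX + v group. Other sets leaned lower as well, with 4 of 5 dark cell, 4 of 5 melanocyte and 3 of 4 skeletal muscle markers lower in the OVX + E2 group. Lower were also 6 of 10 supporting cell, 3 of 5 otoconial epithelium, 3 of 10 hair cell and 1 of 4 endothelial markers. In these sets 0 markers were called. The part of these markers and of the lower depth in the *Gstm1* values was not tested.

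Against the OVX + v group, *Gstm1* had a log2 fold change of -0.03 after the sham operation (95% interval -0.58 to 0.52) and -0.37 with raloxifene (95% interval -0.92 to 0.19). Neither passed the test (adjusted p = 1.00 and 0.950, edgeR). The means were 453 ± 98.0 CPM (sham + v) and 358 ± 121 CPM (OVX + RAL, SD, each n = 5). The order of the group means was thus OVX + v, sham + v, OVX + RAL and OVX + E2, and only the OVX + E2 group did not overlap the OVX + v group.

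*Gstm2*, a second soluble mu class enzyme, lies at chr3:107889018-107893769 on the minus strand. In the sham + v replicates it had 116, 247, 78.8, 222 and 86.9 CPM, and in the OVX + v replicates 69.8, 124, 280, 166 and 97.6 CPM. In the OVX + E2 replicates it had 84.2, 314, 161, 113 and 140 CPM, and in the OVX + RAL replicates 179, 187, 199, 256 and 72.5 CPM. Every group overlapped every other, and the group means lay between 147 and 179 CPM. The highest level of all was that of OVX + E2 replicate 12, the library with the lowest *Gstm1* level, in which *Gstm1* was 24.8% of the summed level of *Gstm1*, *Gstm2* and *Gstm5*. In the other 4 OVX + E2 libraries this share of the 3 members was 58.9% to 64.2%. It was 42.3% to 68.3% among the OVX + RAL libraries, 60.8% to 76.4% for OVX + v and 51.7% to 76.7% for sham + v.

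*Gstm5*, a mu class enzyme known from brain and testis, lies at chr3:107803137-107806002 on the plus strand. It had 55.5, 64.0, 155, 126 and 84.2 CPM in the sham + v replicates and 50.5, 52.1, 16.4, 71.3 and 97.6 CPM in the OVX + v replicates. In the OVX + E2 replicates it had 78.3, 41.5, 48.1, 69.5 and 66.6 CPM, and in the OVX + RAL replicates 99.3, 63.6, 105, 26.8 and 61.5 CPM. The sham + v mean was the highest, but only replicates 3 and 4 exceeded every OVX + v library. The log2 fold change of sham + v against OVX + v was 0.75 (SE 0.645, adjusted p = 1.00, edgeR).

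**Figure D2:**
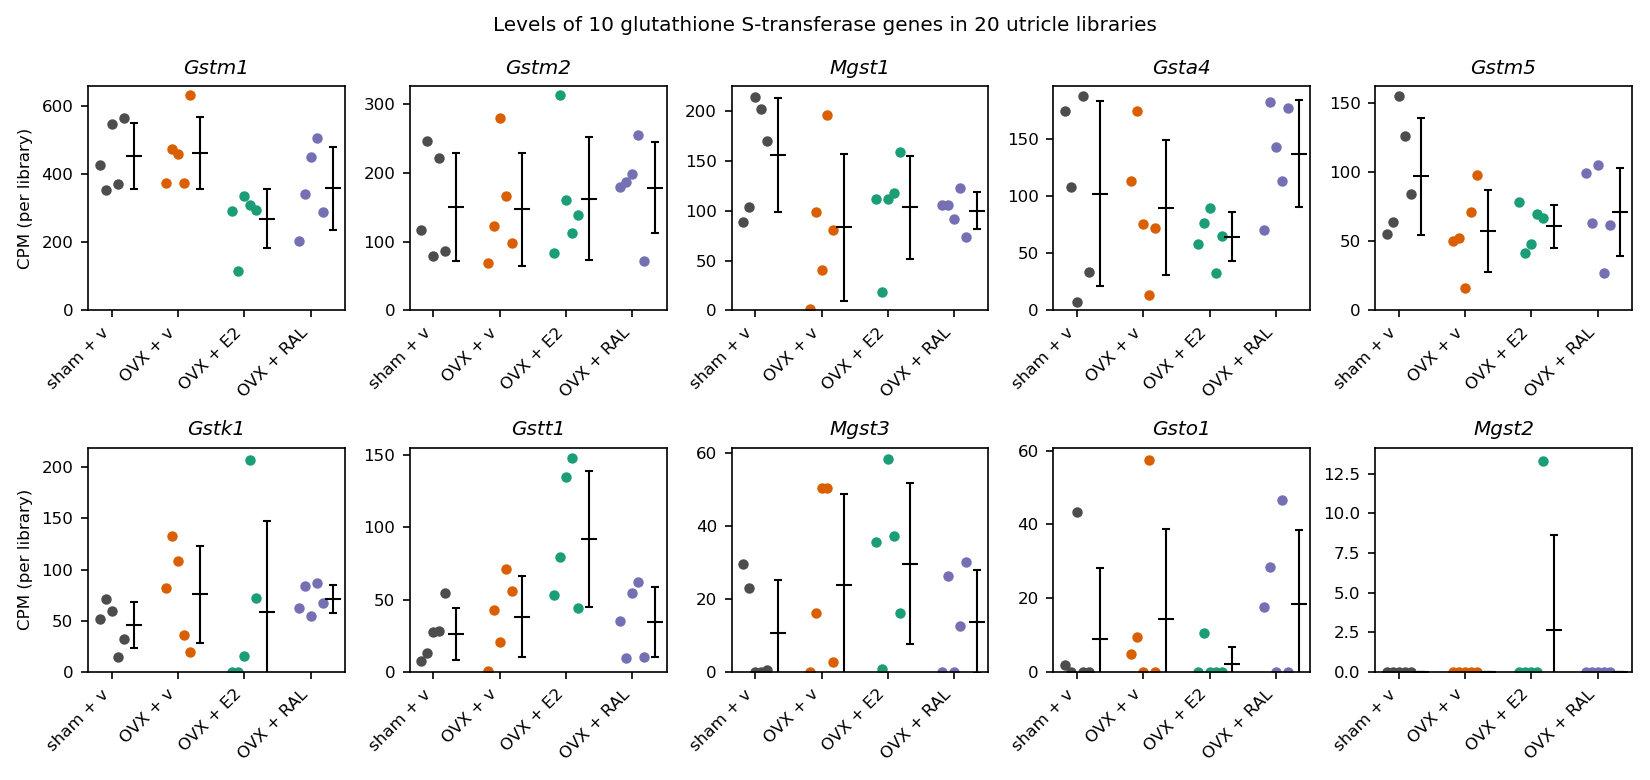
CPM of each member (y axes, linear and scaled per gene) by group (x axes); each point is 1 library, and the black bar and whiskers are the mean and SD of the 5 libraries, with whiskers stopped at 0. *Gstm1* in the OVX + E2 group (117 to 336 CPM) is the only set of points of these 10 genes that does not overlap the OVX + v group (373 to 633 CPM).

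*Gsta4*, the alpha class enzyme with high activity towards 4-hydroxynonenal, lies at chr9:78090056-78116631 on the plus strand. It had 174, 108, 7.70, 187 and 33.8 CPM in the sham + v replicates and 113, 174, 75.4, 13.9 and 72.5 CPM in the OVX + v replicates. In the OVX + E2 replicates it had 58.4, 76.3, 89.8, 32.9 and 65.2 CPM, and in the OVX + RAL replicates 70.5, 182, 143, 113 and 177 CPM. The sham + v group alone held both the lowest and the highest value of the 20 libraries. The OVX + RAL mean was the highest (137 ± 46.6 CPM, against 89.9 ± 59.1 CPM in the OVX + v group, SD, each n = 5), with a log2 fold change of 0.61 (SE 0.459, adjusted p = 0.940, edgeR). It was 0.33 without OVX + v replicate 9, which stood lowest, and 0.996 without OVX + v replicate 7, which stood highest.

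*Gstt1*, a theta class enzyme that acts on small halogenated compounds, lies at chr10:75619647-75634418 on the minus strand. It had 7.31, 13.1, 27.9, 28.5 and 54.4 CPM in the sham + v replicates and 0.623, 42.7, 20.4, 71.3 and 55.7 CPM in the OVX + v replicates. In the OVX + E2 replicates it had 53.1, 79.3, 135, 148 and 44.2 CPM, and in the OVX + RAL replicates 35.5, 9.69, 54.6, 62.4 and 10.6 CPM. The OVX + E2 mean was the highest, and 3 of its 5 libraries exceeded every OVX + v library. The log2 fold change against OVX + v was 1.26 (SE 0.914, adjusted p = 0.807, edgeR), and the two-sided exact permutation test gave p = 0.0714 (adjusted p = 0.980). The value of 0.623 CPM in OVX + v replicate 6 was a single count, and without that library the log2 fold change was 0.95. With limma on log2(CPM + 0.1) it was 2.11 and did not pass the threshold.

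*Gstk1*, the kappa class enzyme, lies at chr6:42222869-42227381 on the plus strand. It had 52.1, 71.4, 59.3, 14.5 and 32.5 CPM in the sham + v replicates and 82.2, 133, 108, 36.2 and 19.5 CPM in the OVX + v replicates. In the OVX + E2 replicates it had 0, 0, 15.2, 207 and 72.2 CPM, and in the OVX + RAL replicates 62.2, 84.0, 54.6, 86.6 and 67.7 CPM. The OVX + E2 group held both the lowest and the highest levels of the 20 libraries, whereas the OVX + RAL libraries lay close together. For the libraries at 0, a count of 0 allows up to 1.99 and 2.27 CPM, respectively. The log2 fold change of OVX + E2 against OVX + v was -0.36 (SE 0.879, adjusted p = 1.00, edgeR). It was -1.79 without OVX + E2 replicate 14 and -0.042 without OVX + E2 replicate 11. With limma it was -2.37 on log2(CPM + 1) and -3.70 on log2(CPM + 0.1), and neither passed (adjusted p = 0.836 and 0.780).

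*Mgst1*, a microsomal and mitochondrial membrane enzyme with glutathione peroxidase activity, lies at chr6:138117314-138133753 on the plus strand. It had 88.2, 103, 214, 202 and 169 CPM in the sham + v replicates and 1.25, 98.5, 40.2, 196 and 80.1 CPM in the OVX + v replicates. In the OVX + E2 replicates it had 111, 18.1, 111, 118 and 159 CPM, and in the OVX + RAL replicates 106, 106, 91.6, 122 and 73.5 CPM. The sham + v mean was the highest (155 ± 57.0 CPM, against 83.2 ± 73.2 CPM in the OVX + v group, SD, each n = 5), but the groups overlapped. The log2 fold change was 0.90 (SE 0.494, 95% interval -0.07 to 1.87, adjusted p = 0.521, edgeR). It was 0.58 without OVX + v replicate 6, which held 2 counts of *Mgst1*, and 1.496 without OVX + v replicate 9. With limma on log2(CPM + 0.1) it was 1.93 and did not pass the threshold.

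The other 3 members were the lowest, and a level of 1.44 to 2.67 CPM corresponds to 3 counts in these libraries. *Mgst3*, a further membrane enzyme, lies at chr1:167199535-167221410 on the minus strand and ranged from 0 to 58.5 CPM, with 3 counts or more in 13 libraries. Its group means were 29.7 CPM for OVX + E2, 24.0 CPM for OVX + v, 13.8 CPM for OVX + RAL and 10.7 CPM for sham + v, and all groups overlapped. *Gsto1*, an omega class enzyme with thioltransferase activity, lies at chr19:47843409-47853229 on the plus strand and had 3 counts or more in 9 libraries, the highest with 57.5 CPM in OVX + v replicate 9. Its bounds overlap those of *Cfap43* on the opposite strand, which had 609 counts in all. *Mgst2*, known for leukotriene C4 synthesis, lies at chr3:51567781-51590098 on the plus strand and had all of its 19 counts in OVX + E2 replicate 15. No fold change is given for it.

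No member passed an adjusted p of 0.05 in the sham, estradiol or raloxifene comparison. In sham + v against OVX + v, 0 of 9 members tested were called by edgeR, against 0.0145% of all genes, and 0 had an unadjusted p under 0.05, against 12.5% of all genes. In OVX + E2 against OVX + v, 0 of 10 were called, against 0.0584% of all genes, and *Gstm1* had an unadjusted p under 0.05, against 13.9% of all genes. *Mgst2* also had one, but it passed the count filter only through 1 OVX + E2 library, and its exact permutation p was 1.00. It is therefore left out of the count under 0.05, though it stays in wherever 10 members are given as tested. In OVX + RAL against OVX + v, 0 of 9 were called, against 0.0286% of all genes, and 0 had an unadjusted p under 0.05, against 12.1% of all genes. Calls were this rare among all genes, so a count of 0 among 10 members is near the background. DESeq2 and limma also called 0 members in each comparison.

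By the exact permutation test, 0, 1 and 0 members had an unadjusted p under 0.05 in the sham, estradiol and raloxifene comparisons, respectively, against 3.85%, 5.18% and 4.14% of all genes. The numbers of members that did not overlap the OVX + v group were 0, 1 and 0, against 0.499%, 0.832% and 0.578% of all genes. A count of 1 in 10 rests on *Gstm1* alone. After adjustment over all genes the permutation test called 0 genes in each comparison.

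To ask about the hormone state, the OVX + v libraries were set against the average of the remaining 3 groups. All 20 libraries were fitted together. Those 3 groups differ in hormone state, and the study states that the action of raloxifene in the inner ear is unknown. Unequal differences, as for *Gstm1* (log2 fold change -0.03 in the sham and -0.78 in the estradiol comparison), are therefore averaged. Of the 10 members 0 were called by edgeR, against 1.90% of all genes, and 0 had an unadjusted p under 0.05, against 8.78% of all genes. The 1.90% was 283 genes, 280 of them higher in the OVX + v group. That number was 3 without sham + v replicate 2, and 0 to 337 under the alternatives that left out no library. *Gstm1* had the smallest p (log2 fold change 0.39, SE 0.265, 95% interval -0.13 to 0.91, adjusted p = 0.923), with the OVX + v group higher. A test for any difference among the 4 groups called 0 members (0.141% of all genes), and its smallest p among the members with a mean of at least 20 CPM was that of *Gstm1* (adjusted p = 0.403, edgeR). The highest group mean was that of OVX + v for *Gstm1* and *Gstk1*, sham + v for *Gstm5* and *Mgst1*, OVX + E2 for *Gstt1*, *Mgst2* and *Mgst3*, and OVX + RAL for *Gsta4*, *Gstm2* and *Gsto1*. The lowest mean was that of OVX + v for *Gstm2*, *Gstm5* and *Mgst1*. None of these orders rests on a difference that passed the test.

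**Figure D3:**
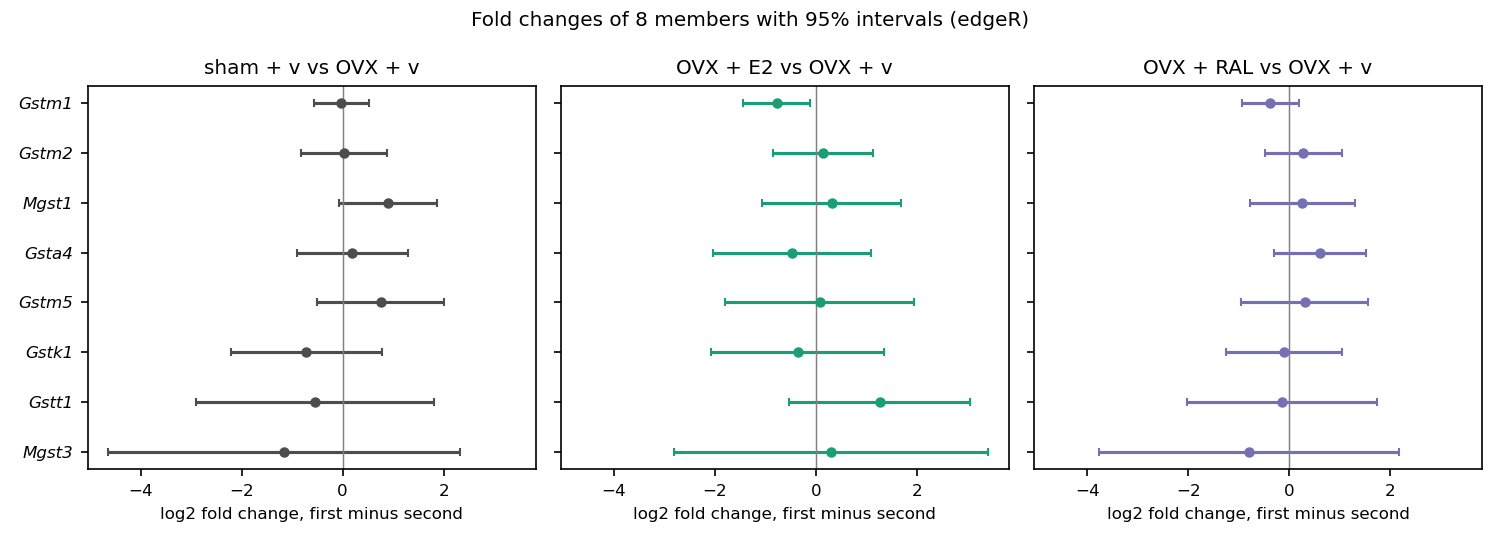
Log2 fold changes (x axes) of 8 members (rows) in the sham, estradiol and raloxifene comparisons by edgeR; points are estimates and bars 95% intervals, and a value over 0 means a higher level than in the OVX + v group. *Gsto1* and *Mgst2* are left out for their many zeros. *Gstm1* in the OVX + E2 group (-1.44 to -0.12) is the only interval that leaves out 0 before adjustment, and the intervals are narrowest for *Gstm1* and widest for *Mgst3*.

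Over the 9 members other than *Mgst2*, the median log2 fold change was -0.03, 0.08 and 0.26 in the sham, estradiol and raloxifene comparisons. Over all genes it was -0.02, -0.06 and -0.03, respectively. The 3 comparisons share the OVX + v libraries. Relative to OVX + v, 4 of these members were higher and 5 lower by sign alone in the sham comparison, 5 and 4 in the estradiol comparison, and 5 and 4 in the raloxifene comparison. With TMM factors, which rescale the libraries, the estradiol median was -0.03, with 4 higher and 5 lower. With each library left out in turn, that median lay between -0.16 (without OVX + v replicate 8) and 0.17. The raloxifene median lay between -0.18 (without OVX + RAL replicate 19) and 0.35, and it was -0.056 without OVX + v replicate 6. The sham median lay between -0.23 (without sham + v replicate 2) and -0.03.

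The members differed in their spread between libraries. The coefficient of variation within groups was 26.9% for *Gstm1*, 49.9% for *Gstm2*, 43.8% for *Gstm5*, 48.8% for *Mgst1*, 57.1% for *Gsta4*, 65.8% for *Gstt1* and 82.4% for *Gstk1*. Counting alone would give 3.99% for *Gstm1* and 11.3% for *Gstt1*. For *Gstm1* the sham + v interval left out log2 fold changes beyond -0.58 and 0.52, whereas for *Gstt1* it reached from -2.90 to 1.81 and for *Mgst3* from -4.65 to 2.33. These unadjusted intervals do not exclude a change of those members within such bounds.

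**Figure D4:**
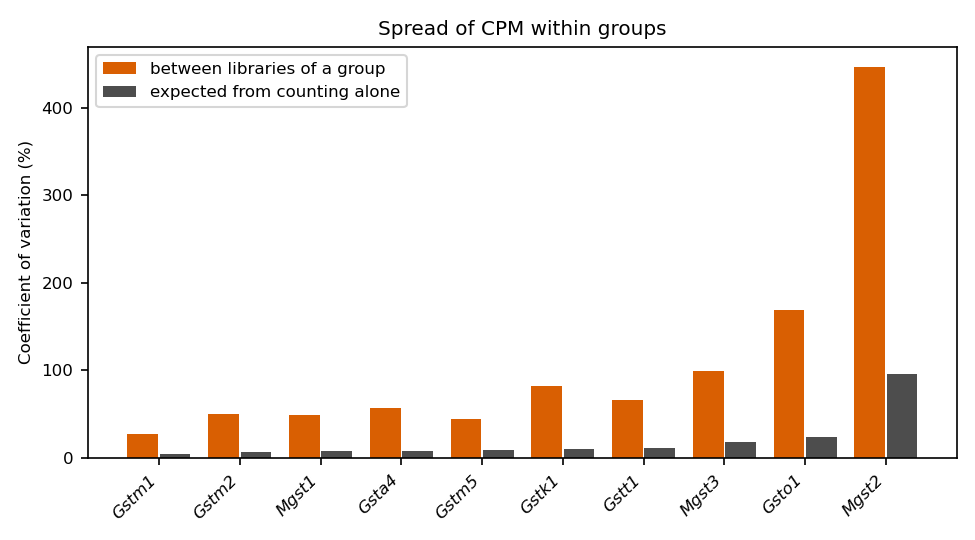
Coefficient of variation of CPM in percent (y axis) for each member (x axis, ordered by mean level); orange bars are the spread between libraries of the same group, pooled over the 4 groups, and grey bars the spread expected from counting alone. The orange bar exceeds the grey bar for all 10 members, by 26.9% against 3.99% for *Gstm1* and by 447% against 96.0% for *Mgst2*.

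Near-identical genes could share reads, since the reads were mapped with the default settings of the software, whose handling of such reads is not spelled out in the sources used here. Of the last 400 nucleotides of each member's GENCODE transcript, 0 of 338 windows of 63 nucleotides occurred in another gene. The deposited 3′ end lay within 280 bases of the transcript's end for 8 members. For *Gsta4* and *Gstt1* the GENCODE transcript ran 1132 and 653 bases past the deposited end, and 0 windows of their whole transcripts occurred in another gene. In *Gstm1*, 52 of these windows (15.4%) matched *Gstm3* with up to 2 mismatches, and *Gstm3* had 0 counts in the 20 libraries. Over the whole transcript, 17.1% of the windows of *Gstm1* and 28.0% of those of *Gstm2* occurred elsewhere, in pseudogenes and, for *Gstm1*, in *Gstm3*. Among the other genes of the same cluster, *Gstm7* had 1804 counts and *Gstm6* 44 counts.

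Other genes of the pathway were taken as lists. Of 20 other glutathione S-transferase and related membrane enzyme genes, 15, 14 and 18 were tested in the sham, estradiol and raloxifene comparisons. In each comparison 1 was called, against 0.0145%, 0.0584% and 0.0286% of all genes, and 3, 3 and 5 had an unadjusted p under 0.05, against 12.5%, 13.9% and 12.1% of all genes. It was *Gstp2*, a pi class enzyme, lower in the OVX + v group each time (adjusted p = 9.28e-17, 4.63e-06 and 1.48e-06 in the sham, estradiol and raloxifene comparisons, edgeR). The study named this gene from these samples, so that it is not independent evidence. The call was kept in 3, 4 and 3 of 8 other settings, respectively, and lost with DESeq2 (adjusted p = 0.655, 0.529 and 0.869) and limma. With edgeR's default filter it was lost in the sham and estradiol comparisons (adjusted p = 0.88 and 0.75). In the raloxifene comparison *Gstp2* was not tested under that filter. The robust edgeR fit lost the call in the sham and raloxifene comparisons (adjusted p = 0.38 and 0.42). Without OVX + RAL replicate 18 the raloxifene call was lost as well (adjusted p = 0.140, edgeR). In limma on log2(CPM + 1) the gene called was instead *Gstp1*, its neighbour, in the opposite direction, with log2 fold changes of -3.35, -3.75 and -2.40 (adjusted p = 1.06e-08, 2.50e-06 and 2.13e-06). DESeq2 called *Gstz1*, a zeta class enzyme, in the estradiol comparison (adjusted p = 0.0497), lower than in the OVX + v group. *Gstp1* and *Gstz1* were named after their values were seen. All 338 windows of 63 nucleotides in the last 400 nucleotides of the *Gstp2* transcript occurred in transcripts of *Gstp1* or a pseudogene (*Gstp-ps*), so the split of counts between these genes is uncertain. The median log2 fold change of the list was 0.32 over 15 genes tested, -0.40 over 14 and 0.57 over 18, respectively.

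Of the genes for glutathione synthesis and recycling, 0 of 11, 0 of 11 and 0 of 13 tested were called by edgeR in the sham, estradiol and raloxifene comparisons, with 1, 1 and 2 at an unadjusted p under 0.05. That threshold was passed by 12.5%, 13.9% and 12.1% of all genes in these comparisons, which is the background for such counts in this list and the lists that follow. The smallest p were those of *Cth*, *Oplah* and *Chac2*, each with an adjusted p of 0.351 to 0.402. Their medians were 0.06, -0.03 and 0.04. Of the export and mercapturate genes, 0 of 9, 0 of 10 and 0 of 9 were called, with 0, 2 and 0 at an unadjusted p under 0.05. Their medians were -0.16, -0.87 and -0.50, and 5, 8 and 7 of them were lower than in the OVX + v group. *Acy3*, an aminoacylase, had the smallest p in the sham and estradiol comparisons (adjusted p = 0.567 and 0.351, edgeR), and *Nat8*, an acetyltransferase, in the raloxifene comparison (adjusted p = 1.00). Of 15 genes for aldehyde clearance, 0 were called in each comparison, with 2, 2 and 0 at an unadjusted p under 0.05 and medians of 0.04, -0.37 and 0.04. *Aldh1a1*, an aldehyde and retinal dehydrogenase, had a log2 fold change of 0.87 after the sham operation (SE 0.321, adjusted p = 0.363, edgeR). *Cbr3*, a carbonyl reductase, and *Aldh7a1* had the smallest p in the estradiol and raloxifene comparisons (adjusted p = 0.351 and 0.621, edgeR).

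Levels of the 7 members with a mean of at least 20 CPM were also compared with each other over the 20 libraries. Of 21 pairs none passed after adjustment over the pairs. The highest Spearman's rho was that of *Gstm5* and *Mgst1* (0.54, permutation p = 0.0151, adjusted p = 0.317; Pearson's r 0.40, permutation p = 0.0878, adjusted p = 0.428). The value of r was 0.51 without the 2 libraries farthest from the median of *Gstm5* and 0.27 within groups. The highest Pearson's r was that of *Gstt1* and *Mgst1* (0.58, permutation p = 0.0213, adjusted p = 0.428; Spearman's rho 0.31, permutation p = 0.188, adjusted p = 0.667). It was 0.75 within groups but 0.021 without the 2 libraries farthest from the median of *Gstt1*, so that it rests on those libraries. The genes most like each member, out of 7261 genes of at least 20 CPM, were *Tcf12* (rho 0.79) and *Ociad1* (0.77) for *Gstm1*, *Trib1* (0.75) for *Gstm2*, and *Atp8b1* (0.71) and *Sucla2* (0.70) for *Gstm5*. They were *Rbmx2* (0.79) and *Isyna1* (0.76) for *Gsta4*, *Ctnnd1* (0.76) and *Pick1* (0.75) for *Gstt1*, *Ahcyl2* (0.78) and *Hmgn2* (0.77) for *Gstk1*, and *Adgrg6* (0.72) and *Ncaph2* (0.71) for *Mgst1*. These are among the 2 highest of 7261 values for each member over the same 20 libraries, which share depth and group, and no gene was named for more than 1 member.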

How the data were processed

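RNA of the utricle was sequenced in 20 libraries, grouped by the treatment given in the labels. The authors trimmed the reads, including the first 12 nucleotides of 75 cycles, mapped them to GRCm39 and obtained counts per gene with CLC Genomics Workbench. The deposited total counts are raw counts per gene and were used for all results. The deposited normalized values, and the columns of the authors' own comparisons (fold change, p-value and FDR), were not used.

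Groups were compared with edgeR 4.0.16 (quasi-likelihood, library size set to the total count), keeping genes whose counts summed to 10 or more, with Benjamini-Hochberg adjustment over all genes, under R 4.3.3. Permutation tests used log2(CPM + 1) with NumPy 2.4.6, and the test between groups was checked on 1 simulated gene with SciPy 1.17.1. Alternatives were TMM factors, DESeq2 1.42.0, limma 3.58.1 with pseudocounts of 1 and 0.1, other filters, the robust fit, 1 fit of the 4 groups and the removal of each library in turn. The tests between groups were also run on simulated data. Floors of 3 counts cover counting error only, as no molecular identifiers were used. The members, gene lists and tests were chosen with earlier results of these data known. Text names all members, the gene of each list with the smallest p, and the 2 genes most like each member, of which 1 is not reported here. Coordinates of genes are those of the deposited tables. Promoters came from RefSeq (GRCm38.p6) and transcript ends from GENCODE vM39.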

Additional observations from a re-analysis of the deposited data

Results flagged for a closer look

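Of 37 sets of 5 libraries of a member, 5 held a library that stood apart from the other 4 by Dixon's criterion, which chance meets in about 1 in 20 sets. Of these 5, 4 were of *Gsto1* and *Mgst2*, the members with the most zeros, and where the other 4 libraries are at 0 any count meets the criterion. *Gstm1* was 117 CPM in OVX + E2 replicate 12, against 291 to 336 CPM in the other OVX + E2 libraries. *Gsto1* was 43.3 CPM in sham + v replicate 3, 57.5 CPM in OVX + v replicate 9 and 10.6 CPM in OVX + E2 replicate 12. The other libraries of those groups had 0 to 1.95 CPM, 0 to 9.41 CPM and 0 CPM, respectively. *Mgst2* was 13.3 CPM in OVX + E2 replicate 15 and 0 in every other library.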

How the results depend on the processing

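No member was called under any alternative run, in the 4 comparisons. Of 727 refits of a member's fold change, 41 changed its sign and 0 passed the threshold. With TMM factors, which moved the median of all genes in the OVX + E2 comparison from -0.06 to -0.17, *Gstm2* was -0.020 in the sham + v comparison and *Gstm5* -0.030 in the OVX + E2 comparison. With limma on log2(CPM + 1), *Gsta4* was -0.12 (sham + v), *Gstt1* 0.27 and *Gstk1* 0.19 (OVX + RAL). With a pseudocount of 0.1 they were -0.14, 0.47 and 0.20, and *Gstt1* was 0.15 in the sham + v comparison, in limma and in the permutation test. The cause was not tested. With each library left out, the sham + v comparison gave -0.15 to 0.57 for *Gsta4*, -0.12 to 0.11 for *Gstm1*, -0.23 to 0.39 for *Gstm2* and -4.67 to 1.31 for *Gsto1*. The OVX + E2 comparison gave -0.24 to 0.51 for *Gstm2*, -0.16 to 0.35 for *Gstm5*, -0.0035 to 0.91 for *Mgst1* and -0.093 to 0.77 for *Mgst3*. The OVX + RAL comparison gave -0.056 to 0.86 for *Mgst1*, -0.34 to 0.21 for *Gstk1*, -0.47 to 0.21 for *Gstt1* and -0.32 to 2.34 for *Gsto1*. OVX + v against the other 3 groups gave -0.49 to 0.17 for *Gsta4*, -0.51 to 0.031 for *Gstm2*, -0.55 to 0.12 for *Gstt1* and -0.97 to 2.64 for *Gsto1*. *Gstm1* in the OVX + E2 comparison stayed between -0.89 and -0.59, with adjusted p from 0.325 to 1.00. The highest group by mean was the highest under TMM for all 10 members and by the median for 9. The number of all genes called was 2, 8, 4 and 283 in the 4 comparisons. It ranged over 0 to 12, 1 to 38, 0 to 11 and 0 to 337 under the alternatives, and the last was 3 without sham + v replicate 2. Sums of members that share 3′ ends were not run, as no such members were found. No paired analysis was possible because the groups share no replicate numbers.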
